A study of Mus musculus with 12 samples.

Results

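The genes described here encode 10 basic leucine zipper transcription factors of neutrophils: the Fos proteins (*Fos*, *Fosb*, *Fosl1*, *Fosl2*), the Jun proteins (*Jun*, *Junb*, *Jund*), the related factors *Batf* and *Atf3*, and the small Maf protein *Maff*. They were taken by their symbols in the annotation of the array platform. Each of the 10 has a single transcript cluster, the set of probes that reads the transcripts of a gene, so all 10 were measured, out of 19938 genes with a cluster of their own and 28944 clusters tested. No filter on signal was applied.

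Neutrophils came from the bone marrow of wild-type C57BL/6 mice or of *Card9*-/- mice of the same background, in which the conventional knockout allele removes the adaptor CARD9 from every cell of the animal and not from neutrophils alone. They were isolated by hypotonic lysis and a Percoll gradient, with Ly6G given as their surface marker. For 4 h they were kept either on a surface coated with human serum albumin (control) or on the same antigen bound by its antibody (immune complex, IC), and 150 ng of total RNA per sample went to an Affymetrix mouse gene array. Each of 3 experiments, done at separate times, held all 4 groups, which gives 3 arrays per group and 12 in all. The labels give neither the sex and age of the mice nor how many animals supplied an array. The study used adult mice of both sexes. It purchased its wild-type controls and backcrossed its mutant strains to C57BL/6, so genotype cannot be told apart from the source of the mice.

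AP-1 is a dimer. Fos proteins need a Jun partner to bind DNA, Jun proteins can also pair with each other, and the dimers bind a short element in the control regions of genes for cytokines, proteases and growth regulators. *Fos*, *Fosb*, *Jun*, *Junb* and *Atf3* are immediate early genes, transcribed within minutes of receptor signalling through mitogen-activated protein (MAP) kinases and often silent again within hours, so that a 4 h sample does not cover their first wave. BATF and the small Maf proteins lack a transactivation domain of their own: BATF acts through Jun and IRF partners, and MafF through larger basic leucine zipper partners such as NRF2 or as a repressive dimer with its own kind.

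The genes lie apart in the genome, with an exception (RefSeq, GRCm38.p6). *Fos* (chromosome 12, 85473890 to 85477274) and *Batf* (chromosome 12, 85686720 to 85709087) start 212.8 kb from each other, with the start of 1 other protein-coding gene between them. *Fosl1* on chromosome 19 (5447698 to 5455938) overlaps *Ccdc85b* by 2776 bases. The study's own table names both genes for that cluster and names a second gene model beside *Jund*. The annotation used here names *Fosl1* and *Jund* alone, and whether the neighbours add to these signals cannot be told from the deposited values.

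The bases just before the transcription start are shown for *Batf* and *Maff*, whose signals differed most between the genotypes on IC, and for *Fos*, the neighbour of *Batf*. The promoter table of RefSeq holds 11 starts of 9 of the 10 genes. Each line gives 250 bases before a start, 5′ to 3′, on the plus strand of GRCm38.p6, at chr12:85686470-85686719 for *Batf*, at chr15:79346371-79346620 for the first of 3 starts of *Maff* and at chr12:85473640-85473889 for *Fos*. Capitals mark a match, on either strand, to a motif searched: the AP-1 site TGANTCA, the cyclic AMP response element TGACGTCA, the antioxidant element TGACNNNGC that small Maf dimers can bind, the NF-κB consensus and the CArG box of the serum response factor.
Batf: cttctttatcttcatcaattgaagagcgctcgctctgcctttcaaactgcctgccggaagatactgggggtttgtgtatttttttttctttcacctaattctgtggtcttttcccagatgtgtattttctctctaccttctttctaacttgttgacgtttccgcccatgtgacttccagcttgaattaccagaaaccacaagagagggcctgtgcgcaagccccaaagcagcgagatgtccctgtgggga
Maff: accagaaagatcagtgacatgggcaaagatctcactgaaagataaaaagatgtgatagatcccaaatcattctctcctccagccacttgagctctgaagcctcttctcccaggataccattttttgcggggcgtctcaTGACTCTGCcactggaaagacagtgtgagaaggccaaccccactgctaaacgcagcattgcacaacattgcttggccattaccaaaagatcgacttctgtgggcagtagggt
Fos: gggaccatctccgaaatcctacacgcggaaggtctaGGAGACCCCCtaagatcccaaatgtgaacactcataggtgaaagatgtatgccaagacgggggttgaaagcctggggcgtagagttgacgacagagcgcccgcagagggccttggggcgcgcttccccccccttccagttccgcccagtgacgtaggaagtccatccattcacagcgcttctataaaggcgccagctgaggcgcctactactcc
In the *Batf* window none of these 5 motifs was found. The capitals in the *Maff* window are the antioxidant element, 112 bases before the start, and those in the *Fos* window match the NF-κB consensus, 214 bases before it. At its other 2 starts *Maff* has the letters TGACGTCA 29 bases before the start and an NF-κB match, GGAGTTTCCC, 70 bases before it. Of the 11 windows, 0 hold the AP-1 site, which is present in 6.75% of all 32851 promoters; 1 holds the cyclic AMP response element (1.55% of all), 1 the antioxidant element (10.2%), 0 the CArG box (1.47%), and 4, those of *Fos*, *Fosb*, *Fosl2* and *Maff*, the NF-κB consensus (7.25%; the 2 matches of *Fosl2* overlap each other). These last 4 windows hold 58.4% to 68.8% G and C, against a median of 52.4% for all promoters. The 7.25% covers promoters of any G and C content. A match is a description of these letters and does not show that a factor binds there.

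All values are log2 signals as deposited, so that a difference of 1 is a doubling of the signal. Signals of different genes come from different probes and were not compared with each other. The array medians were 5.70 to 5.75 in experiment 1, 5.86 to 5.93 in experiment 2 and 5.27 to 5.39 in experiment 3. *Card9* itself lay between 8.08 and 8.75 on the 6 wild-type arrays and between 5.56 and 6.42 on the 6 *Card9*-/- arrays, as labelled. All 12 neutrophil markers measured (*Ly6g*, *S100a8*, *Cxcr2* and others) were above the 90th percentile of all clusters, against 0 of 7 markers of B cells, 0 of 7 of T and NK cells, 2 of 8 of monocytes and macrophages, 2 of 7 of eosinophils, basophils and mast cells and 0 of 6 of erythroid cells. In such bulk RNA, fewer cells of a type and less RNA per cell cannot be told apart.

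**Figure D1:**
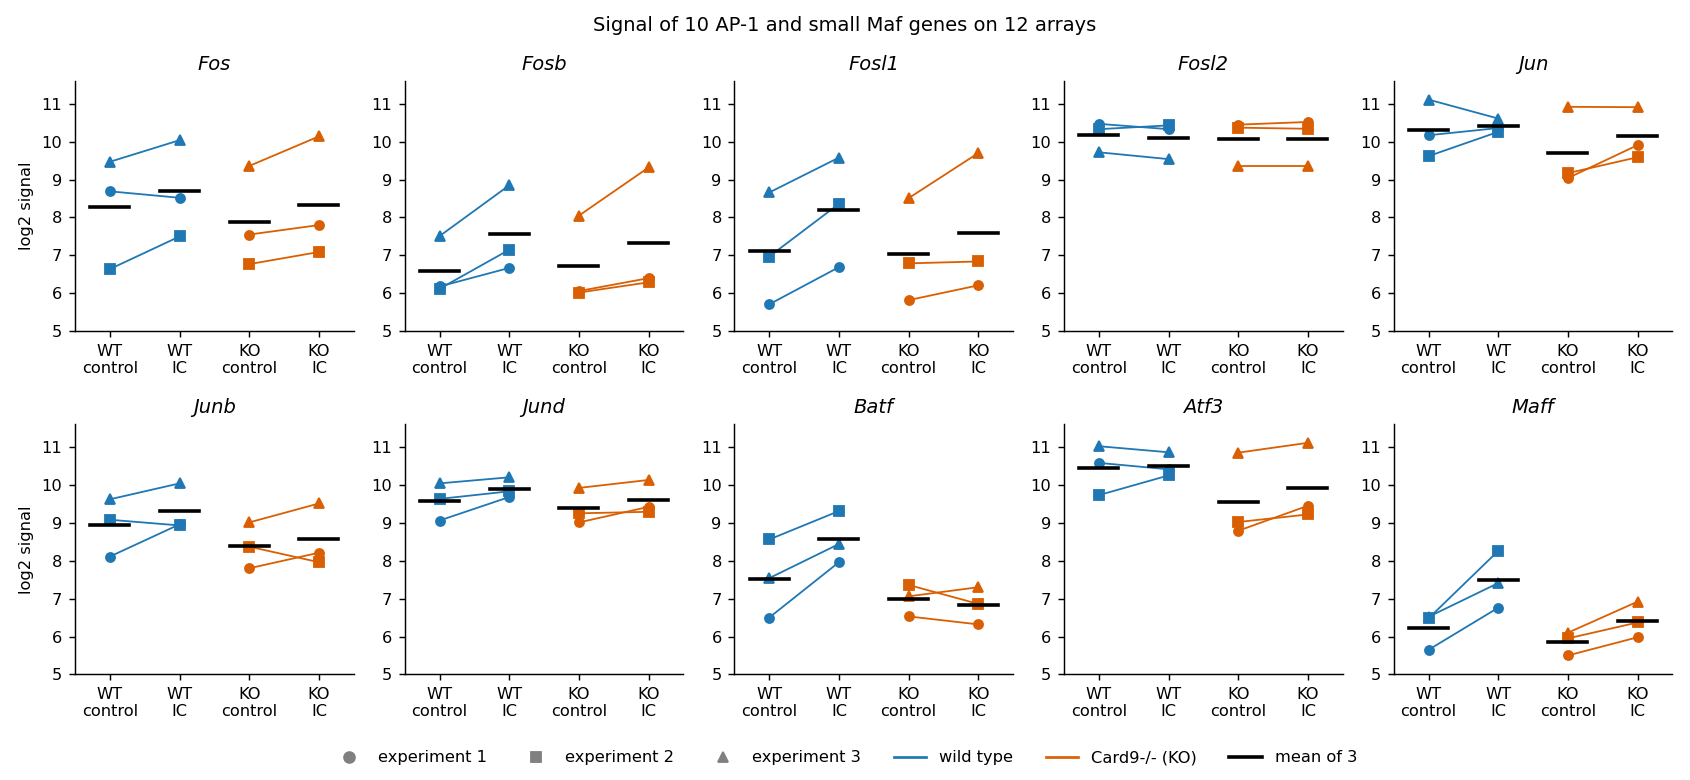
Log2 signal (vertical axis) of each of the 10 genes on the 12 arrays, in the 4 groups (horizontal axis; WT is wild type, KO is Card9-/-, IC is immune complex). Each symbol stands for an experiment, a line connects control and IC of the same genotype and experiment, and black bars are means of 3. For Batf the 3 wild-type arrays on IC (7.96 to 9.31) lie above the 3 Card9-/- arrays on IC (6.32 to 7.30).

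*Batf*, known for its part in lymphocyte and dendritic cell differentiation, was the gene of the 10 with the largest difference between the genotypes. Wild-type cells gave 6.50, 8.56 and 7.54 in experiments 1, 2 and 3 on the control surface. On IC they gave 7.96, 9.31 and 8.44. *Card9*-/- cells gave 6.53, 7.36 and 7.06 on the control surface. Their values on IC were 6.32, 6.86 and 7.30. The wild-type arrays on IC were thus above every *Card9*-/- array, and each was above its own control, while in *Card9*-/- cells the IC array was below the control in experiments 1 and 2 and above it in experiment 3. On IC the group means were 8.57 ± 0.68 (SD, n = 3) in wild-type and 6.83 ± 0.49 in *Card9*-/- cells.

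The difference on IC was −1.74 on the log2 scale (standard error 0.25, 95% confidence interval −2.30 to −1.19), a ratio of 0.299, and *Batf* was below wild type in 3 of 3 experiments (−1.64, −2.45 and −1.14). It passed the limma test with the experiment as a block (Benjamini-Hochberg adjusted p = 0.0285 over all clusters). In the same comparison 0.162% of all clusters passed, and *Batf* was the only 1 of the 10 genes that did. It was also the only 1 of them whose *Card9*-/- and wild-type values on IC did not overlap with *Card9*-/- lower, as was so for 1.03% of all clusters. The call needed all 3 experiments: adjusted p was 0.0741 without experiment 1, 0.178 without experiment 2 and 0.0513 without experiment 3, with differences of −1.79, −1.39 and −2.05. With each array centred on its median it was 0.0642, and without the replicate block it was 1.

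Ordered by their means, the *Batf* signals were 8.57 in wild-type cells on IC, 7.53 in wild-type control, 6.98 in *Card9*-/- control and 6.83 in *Card9*-/- cells on IC. No pair of neighbours in this order passed the test. For *Maff*, *Fos*, *Fosl1* and *Jund* the order was wild-type IC, *Card9*-/- IC, wild-type control and *Card9*-/- control, and for *Jun*, *Junb* and *Atf3* both wild-type groups were above both *Card9*-/- groups. In *Batf*, the step from wild-type control to wild-type IC was 1.04 (standard error 0.25, adjusted p = 0.347, above 0 in 3 of 3 experiments), that between the control groups −0.55 (adjusted p = 0.954) and that from control to IC in *Card9*-/- cells −0.16 (95% confidence interval −0.71 to 0.40). Of the 10 genes *Batf* had the only mean below 0 for the IC response of *Card9*-/- cells, and without experiment 2 that mean was 0.014. The IC response of *Card9*-/- cells minus that of wild-type cells was −1.19 (95% confidence interval −1.98 to −0.41), with −1.68, −1.25 and −0.65 in the 3 experiments, and did not pass (adjusted p = 0.9992).

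Markers of other cells were read in the same comparison, in which 0 of them passed the limma test in any list and 4 of B cells, 3 of monocytes and 1 of eosinophils, basophils and mast cells had an unadjusted p under 0.05. The 7 markers of B cells, cells that also express *Batf* when activated, all had a mean difference above 0, with a median of 0.67 (1.36, 0.03 and 0.68 in experiments 1, 2 and 3). Their summed linear signal ranged from 282 to 3531 in wild-type and from 295 to 5205 in *Card9*-/- cells on IC. In experiment 2, where these sums were 282 and 295, *Batf* differed most. For the 8 monocyte and macrophage markers the median difference was −0.17, −0.23 and 0.24, and the summed signal went from 5980 to 3807 in experiment 1, from 6930 to 4826 in experiment 2 and from 1915 to 2178 in experiment 3. The median difference was 0.38 for eosinophil, basophil and mast cell markers (−0.07, 0.12 and 0.84), 0.10 for T and NK cell, 0.08 for neutrophil and −0.21 for erythroid markers. In mean signal over the arrays, 1 of 7 B-cell markers (*Ms4a1*), 3 of 7 T and NK cell markers (*Cd4*, *Ncr1* and *Klrb1c*), 1 of 8 monocyte markers (*Ccr2*), 1 of 7 eosinophil, basophil and mast cell markers (*Ms4a2*) and 3 of 6 erythroid markers (*Klf1*, *Epb42* and *Rhag*) lay below the median of all clusters, and the rest above it. The part of these cells in the *Batf* values was not tested.

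*Maff*, whose small protein has a zipper but no activation domain, had the largest IC response in wild-type cells among the 10 genes. Its signal was 5.65, 6.48 and 6.52 on the control surface in wild-type cells. On IC it was 6.76, 8.26 and 7.41. In *Card9*-/- cells it was 5.50, 5.95 and 6.10 on the control surface and 5.98, 6.37 and 6.92 on IC. All 3 wild-type arrays on IC were above all 3 wild-type controls, which held for *Maff* alone of the 10 genes and for 0.902% of all clusters. In *Card9*-/- cells IC was above control in 3 of 3 experiments, though the groups overlapped.

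The IC response of *Maff* was 1.26 in wild-type cells (standard error 0.21, n = 3 experiments, adjusted p = 0.207) and 0.57 in *Card9*-/- cells (standard error 0.21, adjusted p = 0.9998). Between the genotypes on IC the difference was −1.06 (95% confidence interval −1.52 to −0.59, adjusted p = 0.0946), with −0.78, −1.90 and −0.49 in the 3 experiments. It did not pass. Without experiment 2 it was −0.64, and it passed where the experiment was a random block (adjusted p = 0.0376). The responses of the genotypes differed by −0.69 (95% confidence interval −1.34 to −0.03), but by −0.07 in experiment 3.

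Of the Fos genes, *Fosl1* had the largest wild-type response to IC. *Fosl1* (Fra-1), a late-induced member, was 5.71, 6.97 and 8.66 in wild-type controls. Wild-type cells on IC had 6.69, 8.36 and 9.58. The *Card9*-/- values were 5.82, 6.79 and 8.51 on the control surface and 6.21, 6.84 and 9.70 on IC. The IC array was the higher of the pair in 3 of 3 experiments in both genotypes, by a mean of 1.10 in wild-type cells (95% confidence interval 0.60 to 1.61, adjusted p = 0.292) and 0.55 in *Card9*-/- cells (0.04 to 1.05, adjusted p = 0.9998). Between the genotypes on IC it differed by −0.63, from −1.51 in experiment 2 to 0.11 in experiment 3, and by −0.19 without experiment 2.

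*Fosb*, an early gene with a long-lived splice product, was 6.18, 6.12 and 7.51 in wild-type controls and 6.67, 7.15 and 8.85 on IC in the same genotype. For *Card9*-/- the control values were 6.06, 6.02 and 8.05 and the IC values 6.40, 6.29 and 9.32. Its IC response was above 0 in 3 of 3 experiments of each genotype, with means of 0.96 (0.49, 1.04 and 1.34) and 0.63 (0.34, 0.27 and 1.26). The genotypes on IC differed by −0.22, with −0.28, −0.86 and 0.46 in the 3 experiments and a mean of 0.09 without experiment 2.

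*Fos*, the founding member, gave 8.69, 6.64 and 9.47 in wild-type controls and 8.52, 7.50 and 10.04 in wild-type cells on IC. The response was −0.17, 0.86 and 0.57 in wild-type and 0.25, 0.32 and 0.77 in *Card9*-/- cells, with means of 0.42 and 0.45. *Fosl2* (Fra-2) stayed within 9.36 to 10.52 on all 12 arrays. Its mean differences were −0.07 and 0.01 for the IC responses and −0.11 and −0.03 for the genotypes on control and IC, and their 95% confidence intervals lay between −0.36 and 0.26.

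**Figure D2:**
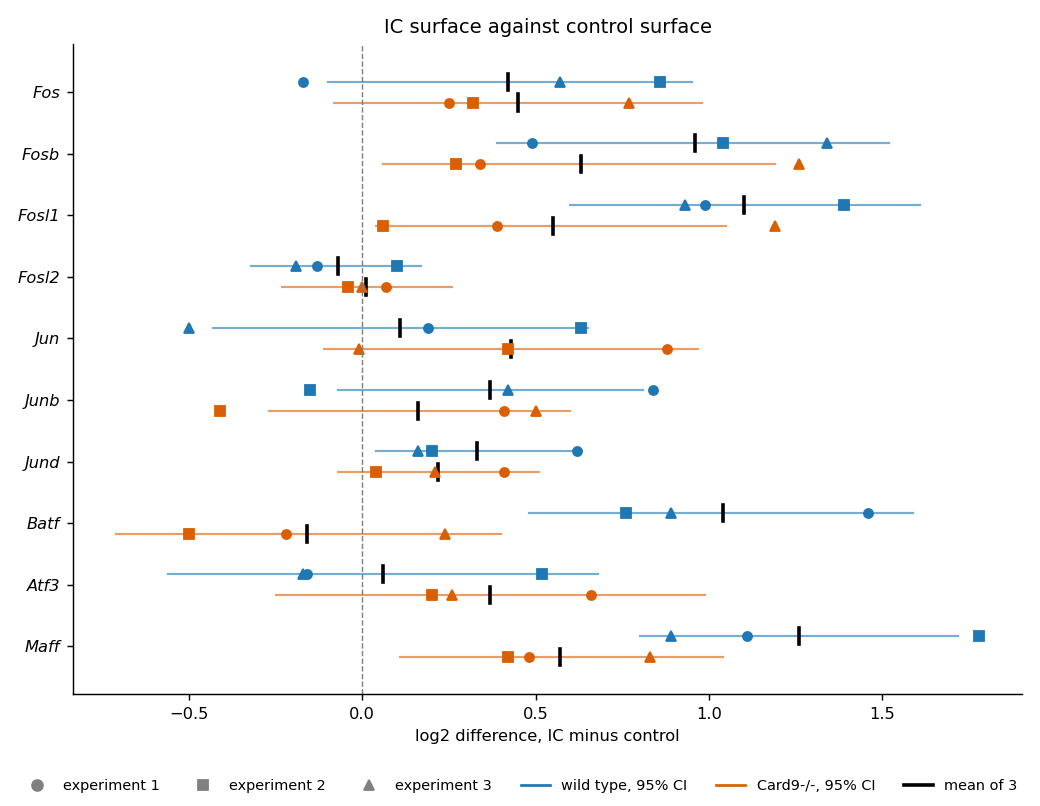
IC minus control signal in log2 units (horizontal axis) for each of the 10 genes, in wild-type and Card9-/- cells. Each symbol is an experiment, black ticks mark means of 3 and lines are 95% confidence intervals from limma; the wild-type mean is highest for Maff, 1.26, and for Batf the mean is 1.04 in wild-type and −0.16 in Card9-/- cells.

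In the whole group, 9 of the 10 genes had a mean IC response above 0 in wild-type cells, as did 59.7% of all clusters, and 9 of 10 in *Card9*-/- cells, where 46.4% of clusters did. The median response was 0.40 in each genotype, against 0.039 and −0.011 over all clusters. In experiments 1, 2 and 3 it was 0.56, 0.70 and 0.50 in wild-type and 0.40, 0.13 and 0.38 in *Card9*-/- cells. Without experiment 1, 2 or 3 it was 0.45, 0.51 and 0.41 in wild-type and 0.22, 0.45 and 0.26 in *Card9*-/- cells. *Fosb*, *Fosl1*, *Jund*, *Batf* and *Maff* were above 0 in 3 of 3 wild-type experiments (18.8% of clusters), and *Fos*, *Fosb*, *Fosl1*, *Jund*, *Atf3* and *Maff* in 3 of 3 *Card9*-/- experiments (11.5%). The factorial test without moderation and without the block called 0 of all 28944 clusters in every comparison, so its 0 among these genes adds no information. With limma 0 of the 10 passed in wild-type cells (0% of clusters) and 0 in *Card9*-/- cells (0%). Above 0 with an unadjusted p under 0.05 were 5 genes in wild-type cells (5.18% of clusters), those above 0 in 3 of 3 experiments, and *Fosb*, *Fosl1* and *Maff* in *Card9*-/- cells (1.87%). Without experiment 1, 2 or 3 this count was 2, 4 and 1 in *Card9*-/- cells and 5, 6 and 6 in wild-type cells.

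The difference between the IC responses also passed for 0 of 10 with limma (0% of clusters). *Batf* and *Maff* were below 0 with an unadjusted p under 0.05 (2.65% of clusters), and neither was without experiment 1. The mean was below 0, a smaller response in *Card9*-/- cells, for 6 of the 10 genes (56.4% of clusters). The response was smaller in *Card9*-/- cells in 3 of 3 experiments for *Fosb*, *Batf* and *Maff* (16.6% of clusters). By experiment, *Card9*-/- cells had the smaller response for 6 of 10 genes in experiment 1 (51% of clusters), for 10 of 10 in experiment 2 (53.6%) and for 3 of 10 in experiment 3 (55.3%). For *Fos*, *Fosl2*, *Jun* and *Atf3* the mean difference was above 0 (0.03, 0.09, 0.32 and 0.31), and for *Fos* it was below 0 without experiment 1 (−0.17) or without experiment 3 (−0.06).

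*Jun* and *Atf3*, both stress-responsive and both able to pair with each other's product, had their larger mean difference between the genotypes on the control surface. So did *Fos* (−0.37 on control and −0.34 on IC) and *Fosl2* (−0.11 and −0.03). Whether the surfaces differed in this was tested as the difference of the IC responses, which did not pass. *Jun* was 10.17, 9.62 and 11.11 in wild-type controls and 9.04, 9.17 and 10.92 in *Card9*-/- controls. On IC it was 10.36, 10.26 and 10.61 in wild-type and 9.91, 9.59 and 10.91 in *Card9*-/- cells. *Atf3*, which encodes a repressor of inflammatory genes in macrophages, was 10.58, 9.73 and 11.02 in wild-type and 8.79, 9.02 and 10.85 in *Card9*-/- controls. Its IC values were 10.41, 10.25 and 10.86 in wild-type and 9.45, 9.22 and 11.11 in *Card9*-/- cells.

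On the control surface *Jun* and *Atf3* were below wild type in 3 of 3 experiments, although the groups overlapped. The mean difference was −0.59 for *Jun* (−1.13, −0.45 and −0.19; adjusted p = 0.954) and −0.89 for *Atf3* (−1.78, −0.71 and −0.18; adjusted p = 0.954). Without experiment 1 these were −0.32 and −0.44. On IC they were below wild type in experiments 1 and 2 and above it in experiment 3 (0.31 and 0.25), with means of −0.27 and −0.58. After the mean of each experiment was subtracted, *Jun* and *Atf3* had a Pearson correlation of 0.901 over the 12 arrays, which share experiments and groups; this is a description.

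*Junb*, which partners Fos and BATF proteins, was 8.11, 9.08 and 9.62 in wild-type controls and 7.80, 8.37 and 9.01 in *Card9*-/- controls. On IC it was 8.96, 8.93 and 10.04 in wild-type and 8.21, 7.96 and 9.51 in *Card9*-/- cells. It was below wild type in 3 of 3 experiments on each surface, by −0.54 on control (−0.31, −0.70 and −0.61; 95% confidence interval −0.98 to −0.11) and by −0.75 on IC (−0.75, −0.97 and −0.53; −1.19 to −0.31). Neither passed (adjusted p = 0.954 and 0.203). The IC response of *Junb* was 0.37 in wild-type and 0.16 in *Card9*-/- cells, and in experiment 2 it was below 0 in both (−0.15 and −0.41).

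*Jund*, the most constantly expressed Jun gene in many cells, had a narrow range, 9.01 to 10.20. It was above control on IC in 3 of 3 experiments of each genotype, by 0.33 and 0.22, and below wild type in 3 of 3 experiments on each surface, by −0.18 on control and −0.29 on IC (adjusted p = 0.954 and 0.548).

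**Figure D3:**
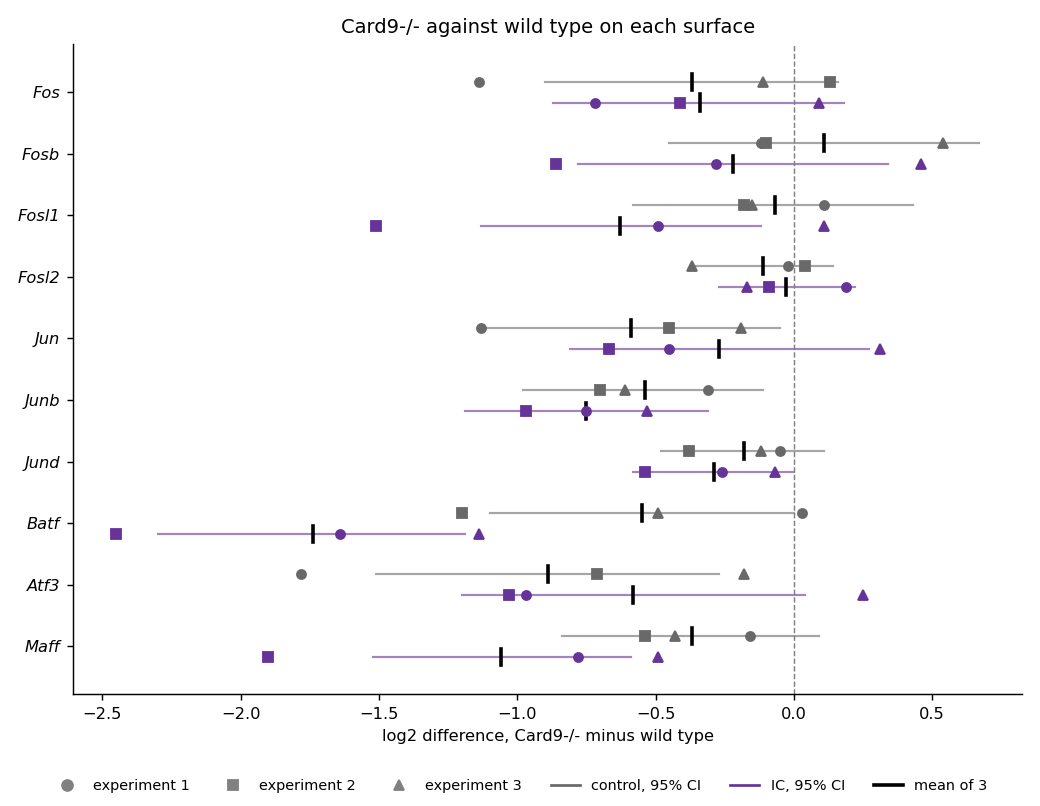
Signal of Card9-/- minus wild-type cells in log2 units (horizontal axis) for each of the 10 genes, on the control and on the IC surface. Each symbol is an experiment, black ticks mark means of 3 and lines are 95% confidence intervals from limma; on IC all 10 means lie below 0, from −0.03 for Fosl2 to −1.74 for Batf.

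Between the genotypes on IC, all 10 genes had a mean below wild type, as did 53.6% of all clusters, with a median of −0.46 against −0.014 over all clusters. Without experiment 2 it was 8 of 10, because *Fosb* and *Fosl2* turned to 0.09 and 0.01, and without experiment 3 it was 9 of 10, with *Fosl2* at 0.05. Within experiments the count was 9 of 10 in experiment 1 (54.3% of clusters below 0), 10 of 10 in experiment 2 (48.7%) and 5 of 10 in experiment 3 (53.2%), with medians of −0.60, −0.91 and 0.01. *Junb*, *Jund*, *Batf* and *Maff* were below wild type in 3 of 3 experiments (15.4% of clusters). Below wild type with an unadjusted p under 0.05 were *Fosl1*, *Junb*, *Batf* and *Maff* (5.1% of clusters). This count was 3 (*Junb*, *Batf* and *Maff*) without experiment 1, the same 3 without experiment 2, and 8 without experiment 3. The shares of all clusters with an experiment left out were not counted.

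On the control surface 9 of 10 had a mean below wild type (42.6% of clusters), with a median of −0.37 against 0.026 over all clusters and of −0.14, −0.42 and −0.18 in experiments 1, 2 and 3. *Fosb* was the exception, at 0.11, and turned to −0.11 without experiment 3. With limma 0 of 10 passed (0.038% of clusters), and *Jun*, *Junb* and *Atf3* were lower with an unadjusted p under 0.05 (2.22% of clusters). *Jun*, *Junb*, *Jund*, *Atf3* and *Maff* were below wild type in 3 of 3 experiments (12.8% of clusters). On this surface 0 markers of other cells passed the limma test and 1, of eosinophils, basophils and mast cells, had an unadjusted p under 0.05. The 7 B-cell markers all had a mean above 0 (median 0.52, with 1.13, −0.03 and 0.40 in experiments 1, 2 and 3), and the medians were 0.31 for eosinophil, basophil and mast cell markers (−0.24, 0.04 and 0.91), 0.12 for T and NK cell, −0.08 for monocyte, −0.07 for neutrophil and −0.13 for erythroid markers. Their part in these differences was not tested. The 2 comparisons of the genotypes use different arrays of the same experiments.

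For 8 of the 10 genes the range between experiment means was larger than the difference between any groups sharing a surface or a genotype. The means of the 4 arrays of an experiment were 6.11, 7.24 and 9.11 for *Fosl1* in experiments 1, 2 and 3. They were 8.14, 7.00 and 9.75 for *Fos* and 6.33, 6.40 and 8.43 for *Fosb*. The range of these means was 3.01, 2.75 and 2.11, against largest differences between the means of groups that share a surface or a genotype of 1.10, 0.45 and 0.96, and against a median range of 0.73 over all clusters. All 4 arrays of experiment 3 were above all 8 of the others for *Fos*, *Fosb*, *Fosl1*, *Jun*, *Jund* and *Atf3*, whereas the array medians were lowest in that experiment. For *Fosl2* the means were 10.44, 10.37 and 9.49, lowest in experiment 3. In *Batf* and *Maff* alone the largest difference between groups that share a surface or a genotype (1.74 and 1.26) was above the range between experiments (1.19 and 0.80). The labels do not say how the experiments differed apart from their time, and sources of this spread were not tested.

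**Figure D4:**
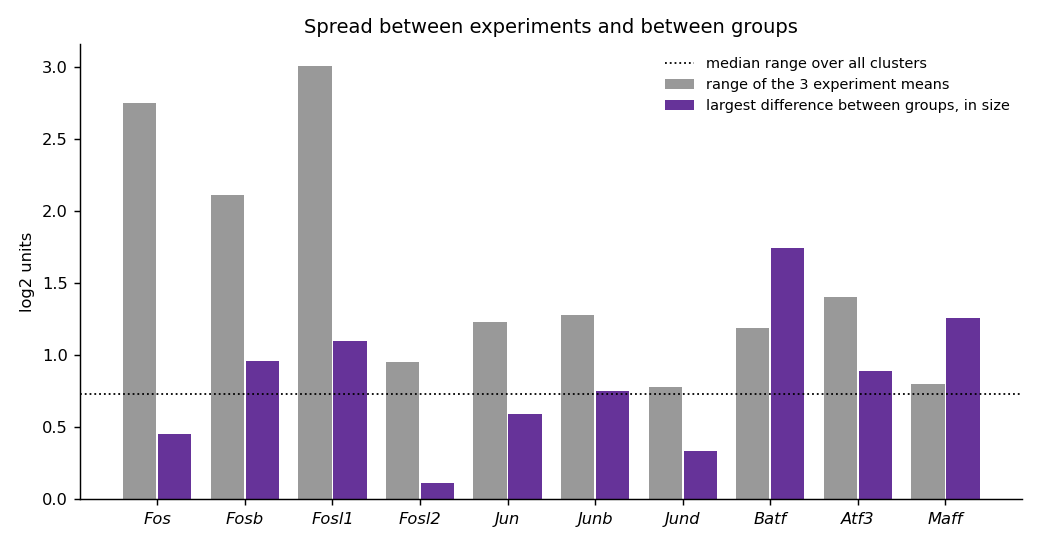
For each of the 10 genes, the range of the 3 experiment means (grey bars, each mean over 4 arrays) and the largest difference between group means within a surface or a genotype, in size (purple bars), both in log2 units on the vertical axis. The dotted line is the median range over all clusters, 0.73; the purple bar is the taller one for Batf and Maff.

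The genes whose patterns were most like that of *Batf* over the 12 arrays, with the mean of each experiment subtracted, were *Nfkbib*, an inhibitor of NF-κB (r = 0.979), the phosphatase gene *Dusp2* (0.973), the adhesion molecule gene *Icam1* (0.967), *Traf1* (0.967) and *Treml4* (0.961). Their differences between the genotypes on IC were −1.07, −0.96, −1.95, −1.84 and −1.21. Those nearest to *Maff* were *Ufm1* (0.96), *Hinfp* (0.955), *Adtrp* (0.949), *9330175E14Rik* (0.949) and *Olfr142* (0.946), with differences on IC of −0.17 to −0.60. Among the 10 genes the closest to *Maff* was *Fosl1* (0.943) and the closest to *Batf* was *Junb* (0.894), while the correlations of *Fosl2* with the others ran from −0.406 (*Fosb*) to 0.098 (*Junb*). These values describe arrays that share groups and experiments. The genes outside the 10 were picked by their likeness on these same arrays, so the shared sign of their differences follows from that choice.

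Other basic leucine zipper genes and IRF partners were read from a list of 32, of which 31 had a cluster. In wild-type cells 0 of 31 passed for the IC response and 12 were above 0 (59.7% of clusters). The median was −0.02 (0.039 over all clusters). *Cebpb*, which encodes C/EBPβ, a driver of emergency granulopoiesis and cytokine genes, had the largest response with a constant sign (1.56, 0.58 and 0.90, mean 1.01, adjusted p = 0.416), followed by *Atf5* (0.39). In *Card9*-/- cells *Cebpb* had 0.94, 0.05 and 1.01 and *Cebpg* a mean of −0.29, 0 of 31 passed and the median was −0.05. Between the genotypes on IC 0 of 31 passed (0.162% of clusters) and 19 were below 0 (53.6% of clusters). The median was −0.06 (−0.014 over all clusters). *Cebpb* was at −0.99 there (−1.18, −1.65 and −0.13, adjusted p = 0.253). *Bach2*, a repressor that pairs with small Maf proteins, was at 0.70 (1.14, 0.01 and 0.94, adjusted p = 0.491). In the same comparison the medians of the B-cell markers were 1.36, 0.03 and 0.68. The part of B cells in the *Bach2* values was not tested. On the control surface 0 of 31 passed, with *Cebpb* at −0.64 and *Mafk*, another small Maf gene, at −0.54. For the difference of the responses 0 of 31 passed, with *Batf3* (−0.43) and *Batf2* (−0.40), the closest relatives of *Batf*, the largest of constant sign.

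Of 28 MAP kinase cascade and serum response factor genes, 21 had a cluster. In wild-type cells 0 of 21 passed for the IC response (median −0.09), and *Map3k5* (−0.37) and *Mapk14*, which encodes p38α (−0.32), were the largest with a constant sign. *Map3k8*, the kinase TPL2 that feeds the ERK branch, was at −0.60 and *Mapk14* at −0.26 in *Card9*-/- cells, where 0 of 21 passed (median −0.07). Between the genotypes on IC 1 of 21 passed (0.162% of clusters), *Map3k8*, lower by −1.47 (−1.52, −1.36 and −1.53, adjusted p = 0.0393). The list median was 0.00 (−0.014 over all clusters). The adjusted p was 0.249 without experiment 2, 0.134 without experiment 3, 0.0728 after median centring and 1 without the replicate block. Its responses differed by −1.06 (−1.69, −0.50 and −0.97) and those of *Map3k1* by 0.31, where 0 of 21 passed. *Map2k3*, a p38 kinase, was at −0.47 on IC and at −0.30 on control, with *Map2k6* at 0.27, where 0 of 21 passed.

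Of 28 textbook AP-1 targets, 26 had a cluster. The median IC response was 0.18 in wild-type and 0.15 in *Card9*-/- cells, with 20 of 26 (59.7% of clusters) and 19 of 26 (46.4%) above 0 and 0 passing in either. *Cxcl2*, a neutrophil chemokine, was at 3.26, 1.14 and 0.63 in wild-type and at 2.47, 0.48 and 0.60 in *Card9*-/- cells. *Ptgs2* had a mean of 1.28 in wild-type and *Il6*, an inflammatory cytokine gene, of 1.11 in *Card9*-/- cells. Between the genotypes on IC 1 of 26 passed (0.162% of clusters), *Tnf*, lower by −2.15 (−2.44, −1.93 and −2.07, adjusted p = 0.0293). Of the 26, 19 were below 0 (53.6% of clusters) and the median was −0.10 (−0.014 over all clusters). For *Tnf* the adjusted p was 0.202 without experiment 2, 0.108 without experiment 3, 0.0545 after median centring, 0.0536 after quantile normalization and 1 without the replicate block. The responses of *Tnf* differed by −1.51 (−2.60, −0.87 and −1.07) and those of *Nqo1* by −0.60, where 0 of 26 passed. *Ptgs2*, cyclooxygenase-2, was at −1.36 (−2.10, −1.64 and −0.33). On control 0 of 26 passed, with *Ptgs2* at −0.89 and *Hmox1*, the haem oxygenase gene, at −0.73. Several of these genes are also targets of NF-κB, and the list does not separate the factors.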

How the data were processed

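Neutrophil RNA of 4 groups was hybridized to Affymetrix arrays in 3 experiments. The authors deposited log2 signals, a value per row and array; how they were summarized and normalized is not stated in the sources read here. Of 35556 rows, 6612 below the identifiers of transcript clusters were left out as control rows, and 28944 were tested as deposited. The precision is limited by the number of arrays. Correlations between arrays were 0.985 to 0.997 within an experiment.

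The 4 groups were fitted in limma 3.58.1 (R 4.3.3) with the experiment as a block, since the labels make each experiment a time point that holds all groups (6 residual and 5.4 prior degrees of freedom). Deviations from group means correlated at 0.671 to 0.867 between arrays of the same experiment. P values are two-sided and adjusted over all clusters, with a threshold of 0.05. Whether replicates came from separate animals is not labelled. With the experiment as a block, p values measure how the differences between groups varied across experiments. Shifts in level between experiments are left out of that spread. The procedure was tested on data simulated from the same fitted model, which cannot show whether that model suits these arrays.

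The genes and lists were chosen with earlier results of these data known. Named were all 10 genes, *Card9*, the 2 genes of each list with the largest difference of constant sign per comparison, and the 5 genes most like *Batf* and *Maff*. A gene with several clusters was represented by that with the highest mean. Figures were drawn with matplotlib 3.10.9 (Python 3.11.15).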

Additional observations from a re-analysis of the deposited data

How the results depend on the processing

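The differences of the 10 genes in the 5 comparisons were recomputed with no replicate block, quantile normalization, centring on the median, the brighter clusters alone, the experiment as a random block, only the arrays compared, limma-trend, a factorial test without moderation and without the block, and each experiment left out. No direction turned except when an experiment was left out. Of the settings that keep all experiments, only quantile normalization and median centring could turn one. The others leave each difference the same by design. The count of these genes past the threshold stayed at 0 for both IC responses, their difference and the genotypes on control. For the genotypes on IC, where it was 1, it was 0 after median centring, 0 with no replicate block, 0 in the factorial test, 2 (*Batf* and *Maff*) with the experiment as a random block and 0 to 0 when an experiment was left out. Of the 10 genes, leaving out the replicate block changed no other call. Without it *Map3k8* and *Tnf* on IC also lost theirs (adjusted p = 1 for each), and the genes with an unadjusted p under 0.05 were 1 and 0 for the IC responses of wild-type and *Card9*-/- cells, 0 for their difference, and 0 and 2 for the genotypes on control and IC. Over all clusters, the genotypes on IC gave 47 calls against 22 after median centring, 0 without the block or in the factorial test, 105 with a random block, 173 with only the arrays compared and 3 to 116 with an experiment left out. On control the 11 calls became 1 without the block, 0 in the factorial test, 7 with only the arrays compared and 2 to 7 with an experiment left out, and the 0 calls for the wild-type response became 7 with a random block and 1 to 51 with an experiment left out. No gene had another cluster to try.

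When an experiment was left out, means turned as follows. IC responses of wild-type cells ranged from −0.155 to 0.41 for *Jun* and from −0.165 to 0.18 for *Atf3*. Those of *Card9*-/- cells ranged from −0.016 to 0.038 for *Fosl2*, from −0.002 to 0.45 for *Junb* and from −0.36 to 0.014 for *Batf*. The difference of the responses of *Fos* ranged from −0.171 to 0.31 (−0.06 without experiment 3). On control the genotypes differed by −0.62 to 0.014 for *Fos*, −0.11 to 0.22 for *Fosb* and −0.19 to 0.014 for *Fosl2*, and on IC by −0.57 to 0.093 for *Fosb* and −0.13 to 0.048 for *Fosl2* (0.008 without experiment 2). The causes were not tested.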
